A study of Mus musculus with 100 samples.

Results

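The presomitic mesoderm and segmentation clock genes Hes7, Lfng, Mesp2, Ripply2, Tbx6, Msgn1, Dll3 and Nrarp were followed through the RNA libraries of a mouse study of the methyltransferase activities of MLL3 and MLL4, the enzymes encoded by Kmt2c and Kmt2d. The 8 genes were chosen by name and all 8 were among the 23109 gene-level entries of the tables, each with 1 transcript (the deposited tables list them as NM_033041, NM_008494, NM_008589, NM_001037907, NM_011538, NM_019544, NM_007866 and NM_025980, in the order above). The RNA libraries analysed were 37 in 18 groups, out of 100 samples in the series. The other 63 were not analysed here. They include an RNA sample of a double knockout neural culture at day 8.

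Whole embryos were taken at embryonic days 8.5 and 9.5 (E8.5 and E9.5), with 3 libraries in each group. KI embryos had the genotype Mll3flox/KI;Mll4flox/KI;Sox2-Cre and control embryos Mll3flox/KI;Mll4flox/+;Sox2-Cre, so both carried a KI and a floxed allele of Mll3, a floxed allele of Mll4 and Cre, and the groups differed in the other Mll4 allele. The Sox2 promoter drives Cre in the epiblast, and recombination was not examined here. The labels do not spell out KI. The cultures came from Mll3-/- embryonic stem cells (ESCs) with either Mll4flox/flox (flox) or Mll4KI/KI (KI, clones 27 and 48). They were sampled as ESCs at day 0, as embryoid bodies (EBs, aggregates in medium without LIF) at days 4 and 10, as neural cultures treated with retinoic acid at days 8 and 16, as trophectoderm cultures (TE) at day 6 with inducible CDX2, and as extraembryonic endoderm cultures (ExEn) at day 5. The EB course had 1 flox library a day against the 2 KI clones. The other culture groups had 2 libraries. Nothing states that replicate flox libraries came from separate cultures, so p-values measure only the spread between these libraries, which may be technical.

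Somites form from the presomitic mesoderm in a rhythm set by an oscillator, the segmentation clock, in which Notch signalling is switched on and off in each cell. Tbx6 and Msgn1 are transcription factors that specify presomitic cells, Dll3, Lfng and Nrarp modify or dampen Notch signalling, and Hes7 is the oscillating repressor at the clock's core. Mesp2 and Ripply2 act at the front of the presomitic mesoderm, where Mesp2 sets the next somite boundary and Ripply2 shuts Mesp2 off. Lfng, Dll3 and Nrarp are also expressed in the developing nervous system, so their level in a whole embryo sums over several tissues.

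The stretches upstream of Lfng, Nrarp and Mesp2 are shown as examples of the genes called in embryos below. Each is the 250 bases before the annotated start (RefSeq, GRCm38.p6, + strand of chr5:140607091-140607340, chr2:25180508-25180757 and chr7:79810477-79810726). Capitals mark TGGGAA or its reverse complement TTCCCA, the core letters bound by the Notch effector RBPJ, and GGTGTG or CACACC, letters of a T-box half-site. The motifs were searched on both strands and do not overlap each other in these windows.
Lfng: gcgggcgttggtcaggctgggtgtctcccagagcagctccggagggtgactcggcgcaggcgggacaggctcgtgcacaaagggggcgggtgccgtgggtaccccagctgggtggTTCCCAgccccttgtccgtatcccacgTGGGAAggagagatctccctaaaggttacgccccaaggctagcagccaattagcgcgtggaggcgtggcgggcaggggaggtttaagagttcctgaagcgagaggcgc
Nrarp: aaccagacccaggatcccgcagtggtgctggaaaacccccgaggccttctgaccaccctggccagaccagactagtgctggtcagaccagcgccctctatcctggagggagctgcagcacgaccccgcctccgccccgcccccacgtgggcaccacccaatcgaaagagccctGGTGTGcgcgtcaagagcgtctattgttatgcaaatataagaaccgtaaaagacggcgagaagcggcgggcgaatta
Mesp2: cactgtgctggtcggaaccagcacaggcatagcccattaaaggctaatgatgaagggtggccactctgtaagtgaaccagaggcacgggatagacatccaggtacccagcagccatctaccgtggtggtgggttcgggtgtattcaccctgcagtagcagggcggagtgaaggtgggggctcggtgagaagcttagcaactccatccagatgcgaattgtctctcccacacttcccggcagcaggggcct
Lfng held the RBPJ letters 2 times, starting 135 and 108 bases before the start, and Nrarp held the T-box letters once, 77 bases before. The Mesp2 window held neither, nor did those of Dll3 and Tbx6, which are not shown. Among all 8 genes the RBPJ letters were found upstream of Hes7, Lfng and Msgn1, and the T-box letters upstream of Ripply2 and Nrarp. Of all 32851 windows of this length in the RefSeq table, 21.6% held the RBPJ letters and 16.3% the T-box letters. A match is a description of the letters only.

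Gene-level totals ran from 18.9 to 59.9 M reads per library, and from 20.1 to 26.9 M in embryos (M, megareads). Levels are given as CPM, the reads of a gene divided by the gene-level reads of its library in M. A library with 0 reads allows up to 3 reads, which corresponds to 0.159 CPM in the shallowest library and 0.0501 CPM in the deepest, for counting error only. Kmt2c and Kmt2d reads were present in every library (27.6 to 99.4 and 149 to 334 CPM), and whole-transcript counts do not test a KI or floxed allele. Against their labels, the summed level of 8 pluripotency markers was 4591 to 4944 CPM in ESCs, that of 8 neural progenitor markers 1192 to 1733 CPM in neural day 8 cultures, and that of 8 trophoblast markers 3353 to 5971 CPM in TE cultures but also 3192 to 5091 CPM in ExEn cultures. The 8 extraembryonic endoderm markers summed to about 1294 CPM in both flox ExEn libraries and to 136 and 141 CPM in KI ExEn libraries, so the KI ExEn libraries were low in the markers of their label.

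At E9.5 most of these genes were lower in KI than in control embryos. With edgeR's quasi-likelihood test and Benjamini-Hochberg adjustment over all genes, 6 of 8 were called (adjusted p under 0.05), and all 6 were lower: Lfng, Mesp2, Tbx6, Msgn1, Dll3 and Nrarp. Over all genes tested, 29.5% were called at this stage and 14.9% were called lower. The median log2 fold change of the 8 genes was -1.63, beside 0.0095 over all genes. In whole embryos fewer cells of a type and less RNA per cell cannot be told apart.

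**Figure D1:**
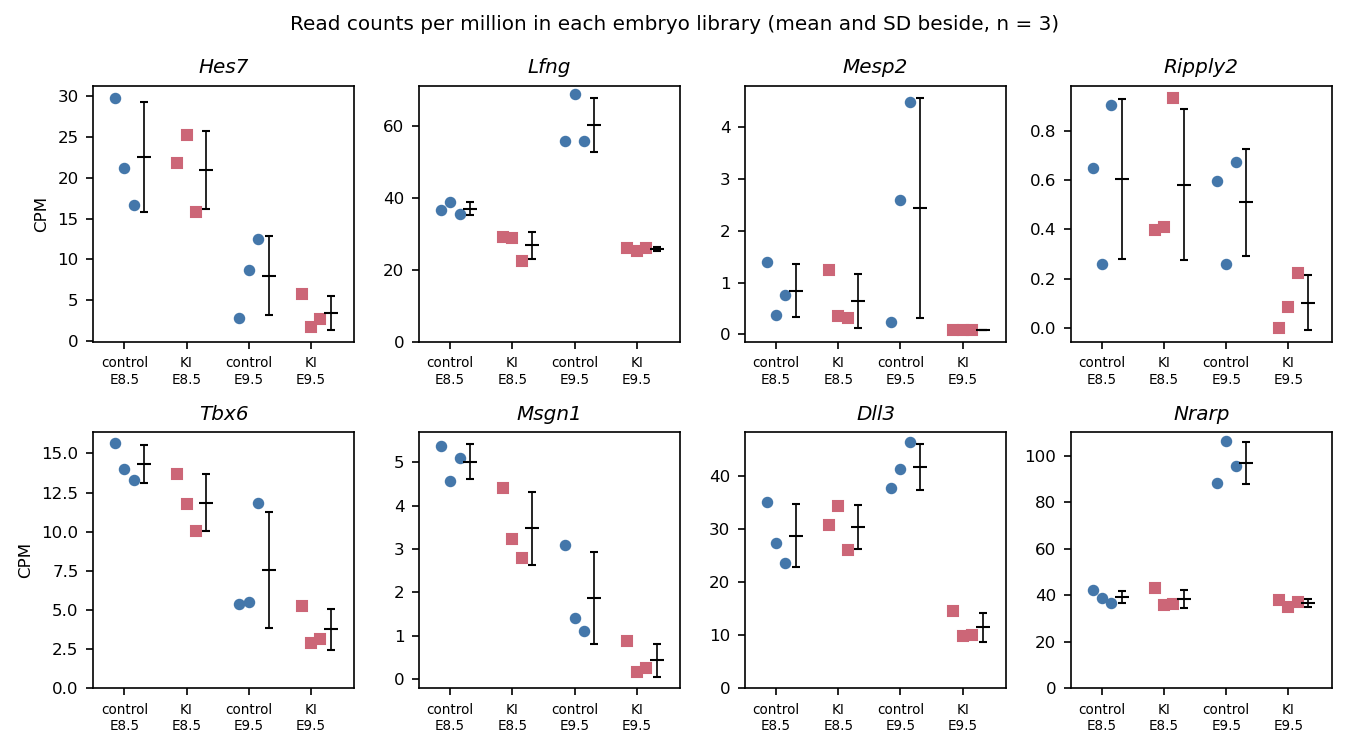
Each panel shows 1 gene, with its level in CPM on the y axis and the 4 embryo groups on the x axis; points are libraries (circles control, squares KI) and the bar beside them is the mean with its SD (n = 3). Nrarp, Lfng and Dll3 are high in control and low in KI libraries at E9.5 without overlap, while Hes7 overlaps at both stages.

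Among the Notch modifiers, Nrarp, which dampens Notch signalling, stood at 88.3, 106 and 95.8 CPM in the control embryos and at 38.1, 34.9 and 37.0 CPM in the KI embryos at E9.5. Dll3, a ligand family member that acts inside the cell on Notch, stood at 37.7, 41.3 and 46.3 CPM in controls and at 14.5, 9.87 and 9.99 CPM in KI. Lfng, a glycosyltransferase that modifies Notch receptors, stood at 55.9, 68.8 and 55.9 CPM in controls and at 26.1, 25.1 and 25.9 CPM in KI. In each of the 3 genes every control library was above every KI library, and the KI libraries of Lfng lay within about 1 CPM of each other. The log2 fold changes were -1.40 for Nrarp (SE 0.09, edgeR adjusted p 2.7e-09), -1.86 for Dll3 (SE 0.17, edgeR adjusted p 1.53e-06) and -1.23 for Lfng (SE 0.11, edgeR adjusted p 1.31e-07).

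Neural markers moved with these 3 genes at E9.5. Of 8 neural progenitor genes 7 were called lower and none higher (Dbx1 the most, log2 fold change -3.14), and their summed level was 610 to 799 CPM in controls and 306 to 382 CPM in KI. Of 8 neuronal genes 6 were lower and none higher (Dcx the most, -2.90), with sums of 213 to 308 and 73.1 to 75.3 CPM. These counts stand beside 14.9% of all genes called lower and 14.6% called higher. No gene of either list was at 0 throughout a group. The part of neural tissue in the levels of Nrarp, Dll3 and Lfng was not tested.

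Of the factors that specify presomitic cells, Msgn1 stood at 3.10, 1.41 and 1.12 CPM in control embryos at E9.5 and at 0.870, 0.172 and 0.265 CPM in KI embryos. Tbx6 stood at 5.36, 5.49 and 11.9 CPM in controls and at 5.26, 2.87 and 3.14 CPM in KI. Both were lower in every KI library, although for Tbx6 the highest KI library and the lowest control library nearly met. The log2 fold change was -2.08 for Msgn1 (SE 0.49, edgeR adjusted p 0.00356) and -1.0 for Tbx6 (SE 0.30, edgeR adjusted p 0.0205). Without KI embryo 1 the Msgn1 value was -3.09. The Tbx6 call depended on single libraries. Without control embryo 3 the Tbx6 log2 fold change was -0.53 (edgeR adjusted p 0.101), without KI embryo 2 it was -0.84 (0.09), without KI embryo 3 it was -0.88 (0.0888), and in a fit of the E9.5 libraries alone it was -1.01 (0.0544).

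At the front of the presomitic mesoderm, Mesp2 had 6, 70 and 100 reads in the control embryos at E9.5 (0.238, 2.60 and 4.47 CPM) and 2 reads in each KI embryo (0.0828, 0.0858 and 0.0884 CPM). The KI libraries were all low and the controls ranged widely, with control embryo 1 close to the KI level. Pooled over libraries, 176 against 6 reads gave a ratio of 27.6 (95% counting interval 12.4 to 76.2, exact). The fitted log2 fold change was -4.74 (SE 1.00, edgeR adjusted p 0.00239), a value that depends on few reads. Without control embryo 3 it was -3.97, and the largest adjusted p with any 1 library left out was 0.0176. Ripply2 had 15, 7 and 15 reads in controls and 0, 2 and 5 in KI, which did not overlap. Its pooled ratio was 4.97 (95% counting interval 2.19 to 13.2, exact), and it was not called (log2 fold change -2.27, SE 0.86, edgeR adjusted p 0.0513), though a fit blocking on the number in the embryo titles called it (adjusted p 0.0325), as did DESeq2 (0.0402), median-ratio scaling (0.0487) and edgeR without control embryo 2 (-2.61, 0.044) or KI embryo 3 (-3.42, 0.0338). With any other embryo of E9.5 left out its adjusted p was up to 0.159.

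Hes7, the clock repressor, stood at 2.82, 8.68 and 12.5 CPM in control embryos at E9.5 and at 5.76, 1.76 and 2.70 CPM in KI embryos. The groups overlapped, since control embryo 1 was below KI embryo 1, and the difference was not called (log2 fold change -1.22, SE 0.60, edgeR adjusted p 0.166). Without control embryo 1 it was -1.63 (edgeR adjusted p 0.0451), without control embryo 3 it was -0.75 (0.425), and without KI embryo 1 it was -1.85 (not called). Counted without a test, 6 of the 7 genes with at least 1 CPM in an embryo library (all but Hes7) had every KI library below every control library, beside 21.8% of all such genes. Ripply2, which stayed under 1 CPM, did not overlap either.

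Among control embryos at E9.5, replicates differed more for Mesp2 and Hes7 than for most genes of a like level. The SD of log2(CPM + 0.5) over the 3 libraries was 1.43 for Mesp2 and 1.02 for Hes7, where genes at 1 to 20 CPM had a median SD of 0.203 and a 99th percentile of 0.822. Tbx6 and Msgn1 both had an SD of 0.61. For Nrarp, Dll3 and Lfng, which stood above that range of levels, it was 0.13, 0.15 and 0.17.

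**Figure D2:**
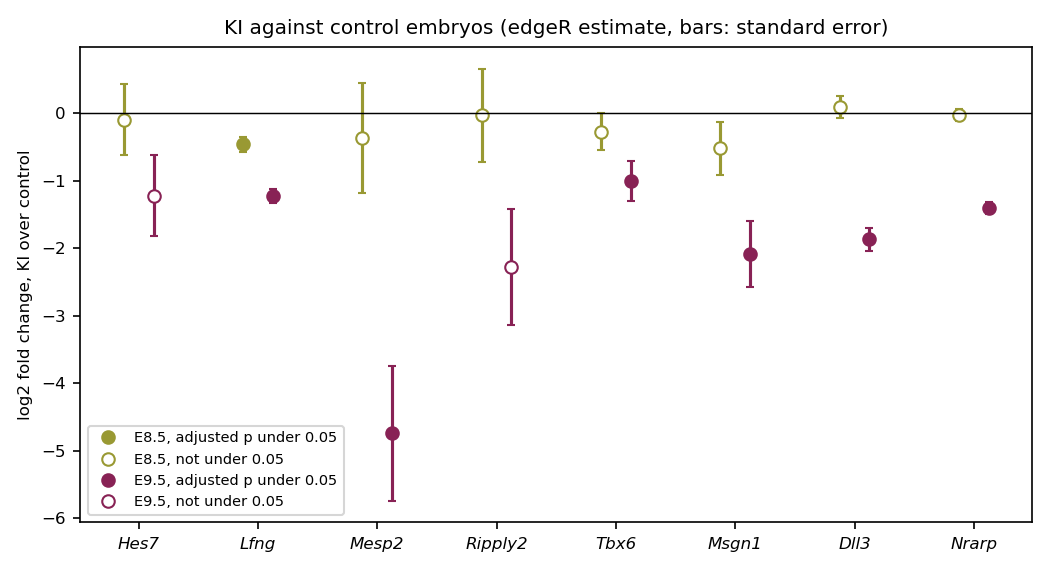
The y axis is the log2 fold change of KI over control embryos and the x axis the 8 genes; points are edgeR estimates with their standard error, at E8.5 (olive) and E9.5 (purple), filled where the adjusted p was under 0.05. At E9.5 all 8 estimates are below 0 and 6 are filled, whereas at E8.5 only Lfng is filled.

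At E8.5, 1 of the 8 genes, Lfng, was called, and it was lower in KI, among 5.46% of all genes called 1.83% called lower and 3.63% higher. Lfng stood at 36.7, 38.9 and 35.5 CPM in controls and at 29.3, 28.7 and 22.6 CPM in KI, without overlap (log2 fold change -0.46, SE 0.11, edgeR adjusted p 0.0154). Neural progenitor markers (8 genes) summed to 392 to 422 CPM in controls and 315 to 346 CPM in KI at this stage, with 3 called lower and none higher (Dbx1 the most, -2.45). The 8 blood markers summed to 729 to 1482 CPM in controls and 119 to 225 CPM in KI, with none called. The 8 trophoblast markers summed to 565 to 666 CPM in controls and 833 to 1048 CPM in KI, with 2 called higher (Hand1 the most, 1.32) and 1, Krt7, lower (-0.76). The part of these lists in the Lfng level was not tested. Without KI embryo 3 the log2 fold change of Lfng was -0.35 and was not called (edgeR adjusted p 0.0896).

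Msgn1 was also lower in each KI library at E8.5, with 5.37, 4.58 and 5.10 CPM in controls and 4.42, 3.23 and 2.80 CPM in KI, but was not called (log2 fold change -0.52, SE 0.40, edgeR adjusted p 0.524). Lfng and Msgn1 were the 2 of 7 genes with at least 1 CPM in an embryo library without overlap at this stage, beside 12.8% of all such genes lower in that way. Nrarp stood at 36.9 to 42.3 CPM in controls and 35.9 to 43.1 CPM in KI, Dll3 at 23.6 to 35.2 and 26.1 to 34.4, and Hes7 at 16.6 to 29.9 and 15.8 to 25.2. These 3 genes overlapped between the groups, with log2 fold changes of -0.03 (SE 0.09), 0.09 (SE 0.16) and -0.10 (SE 0.52). Tbx6 (-0.27, SE 0.28), Mesp2 (-0.37, SE 0.81) and Ripply2 (-0.03, SE 0.69) were not called either. Mesp2 with 7 to 28 reads and Ripply2 with 7 to 21 reads a library were too shallow to show a small difference.

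The difference of the KI effect between the stages was tested in the same fit. It was called for 3 of 8 genes, Lfng, Dll3 and Nrarp, all more negative at E9.5, beside 6.63% of all genes called 3.24% in that direction and 3.39% in the other. The log2 difference was -1.95 for Dll3 (SE 0.24, edgeR adjusted p 0.000178), -1.37 for Nrarp (SE 0.13, edgeR adjusted p 7.45e-06) and -0.77 for Lfng (SE 0.15, edgeR adjusted p 0.00437). Mesp2 had the most negative value and was not called (-4.37, SE 1.31, edgeR adjusted p 0.0615), but was called with the title number as a block (adjusted p 0.0262), with DESeq2 (0.00719) and without control embryo 1 of E9.5 (0.00574). Msgn1 (-1.56), Tbx6 (-0.73), Ripply2 (-2.24) and Hes7 (-1.12) were not called. Msgn1 was called without KI embryo 1 of E9.5 (-2.57, edgeR adjusted p 0.0181). With 1 library left out Mesp2 ran from -4.92 to -3.46 (edgeR adjusted p up to 0.165), Msgn1 from -2.57 to -0.99, Tbx6 from -1.06 to -0.25, Ripply2 from -3.39 to -1.66 and Hes7 from -1.75 to -0.65. For the same difference, 4 of 8 neural progenitor genes were called lower and none higher (Olig2 the most, median -0.62). Of 8 neuronal genes 4 were lower and none higher (Elavl3 the most, median -1.86). The part of these lists in the levels of Dll3, Nrarp and Lfng was not tested.

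From E8.5 to E9.5, control embryos had 3 of the 8 genes called higher and 2 called lower. The stage comparisons use the libraries already described. Nrarp, Lfng and Dll3 were called higher at E9.5, Nrarp by 1.24 (SE 0.09, edgeR adjusted p 1.33e-08), Lfng by 0.64 (SE 0.11, 0.000188) and Dll3 by 0.48 (SE 0.16, 0.0429) on the log2 scale. Msgn1 and Tbx6 were called lower, Msgn1 at -1.47 (SE 0.41, edgeR adjusted p 0.0133) and Tbx6 at -0.99 (SE 0.28, 0.0199). These 5 of 8 stood beside 24.2% of all genes called (12.2% higher, 12.1% lower). In the same contrast 6 of 8 neural progenitor genes (Dbx1 the most) and 7 of 8 neuronal genes (Neurod1 the most) were called higher and none lower. Of 13 tail bud genes 9 were lower (Cdx4 the most) and 2 higher (Hoxc13 the most). The part of these lists in the levels of the 8 genes was not tested. The Dll3 call was lost in 5 of 6 fits that left out 1 library, with adjusted p up to 0.18, and the Tbx6 call without control embryo 1 of E8.5 or control embryo 1 or 2 of E9.5, up to 0.0856. Without control embryo 2 of E9.5 only Lfng and Nrarp were called, and the adjusted p of Msgn1 was 0.0677. Without control embryo 1 of E9.5 Msgn1 was at -2.06. Hes7 (-1.56), Mesp2 (1.48) and Ripply2 (-0.29) were not called in the full fit. Hes7 was called by DESeq2 (adjusted p 0.0337) and by edgeR without control embryo 3 of E9.5 (-2.05, 0.0454). Mesp2 was called by edgeR without control embryo 1 of E9.5 (2.01, 0.0219), and was at 0.69 (0.57) without control embryo 3.

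In KI embryos no gene of the 8 was called higher at E9.5. Hes7 (log2 fold change -2.68), Ripply2 (-2.53), Tbx6 (-1.72), Msgn1 (-3.04) and Dll3 (-1.47) were called lower, beside 32.5% of all genes called (15.9% higher, 16.6% lower). Of 13 tail bud genes 12 were called lower and none higher (Nkx1-2 the most), with a median of -1.79. The part of this list in the levels of the 8 genes was not tested. Nrarp was at -0.14 (SE 0.09) and Lfng at -0.13 (SE 0.11), neither called. Mesp2 was at -2.89 (SE 1.07, edgeR adjusted p 0.0505). It was called by DESeq2 (0.00958) and by edgeR with transcript sums (0.0484), with median-ratio scaling (0.0499) or without KI embryo 3 of E8.5 (0.0449), and its adjusted p reached 0.23 with another library left out. The Ripply2 call was lost without KI embryo 3 of E8.5 or KI embryo 1 or 2 of E9.5 (adjusted p up to 0.124), and without KI embryo 3 of E9.5 the value was -3.68. Without KI embryo 1 of E9.5 Hes7 was at -3.33 and Msgn1 at -4.05.

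Other genes of the same territory were counted at E9.5. Of 20 somite genes 13 were called lower in KI and 1 higher, with a median log2 fold change of -1.08, beside 14.9% and 14.6% of all genes. Myog, a muscle regulator, was the lowest (-5.64), Pax1, of the sclerotome, was at -3.48, Uncx, of the rear part of each somite, at -2.91, and Epha4, a receptor of somite boundaries, was the 1 called higher (0.36). At E8.5 7 of the 20 were already called lower and none higher, led by Pax1 (-2.74), beside 1.83% and 3.63% of all genes. Of 19 other Notch pathway genes 6 were lower at E9.5 and 4 higher, beside the same 14.9% and 14.6%, from Heyl (-2.10), a target gene, to the ligand Dll4 (0.95). The main Notch ligand of the presomitic mesoderm, Dll1, was called lower at E9.5 (-1.08) and at E8.5 (-0.42). At E8.5 it was the 1 gene of the 19 called lower, and 4 were called higher (Dll4 the most, 0.63), beside 1.83% and 3.63% of all genes.

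Wnt and FGF genes, which form the gradients of the presomitic mesoderm, were called in both directions at E9.5. Of 18, 5 were higher (Spry2 the most, 0.96) and 3 lower (Wnt3a the most, -0.96). Of 13 tail bud genes tested, 3 were higher (Cdx4 the most, 0.86) and 3 lower (Hoxd13 the most, -2.53). The summed tail bud level overlapped between control (175 to 224 CPM) and KI (170 to 229 CPM). Against 14.6% of all genes called higher and 14.9% lower, 6 of 8 heart genes (Nkx2-5 the most, 2.00), 5 of 8 trophoblast genes (Hand1 the most, 2.01) and 2 of 8 extraembryonic endoderm genes (Gata4 the most, 1.49) were called higher and none lower. The heart markers summed to 411 to 535 CPM in controls and 981 to 1878 CPM in KI, the trophoblast markers to 189 to 397 and 608 to 625 CPM, and the extraembryonic endoderm markers to 97.7 to 112 and 202 to 359 CPM. Of 8 blood markers 1, Klf1, was called lower (-2.74), with a median log2 fold change of -1.92 over the list and sums of 3400 to 9353 CPM in controls and 626 to 3181 CPM in KI. The 4 pluripotency genes tested were not called. The part of tissue make-up in the levels of the 8 genes was not tested.

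At EB day 4, when mesoderm forms in these aggregates, all 8 genes were higher in the flox library than in either KI clone. The share of all genes with this order was not counted. Msgn1 stood at 26.1 CPM in flox and at 2.15 and 2.22 CPM in KI clones 27 and 48. Tbx6 stood at 21.9 CPM against 2.79 and 4.52 CPM, and Lfng at 25.0 against 9.46 and 8.82 CPM. The 2 clones lay closer to each other than to the flox library in these 3 genes. The flox level was 12.2 and 11.8 times that of the clones for Msgn1, 7.84 and 4.83 times for Tbx6 and 2.64 and 2.83 times for Lfng.

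Dll3 stood at 132 CPM in flox against 63.6 and 85.8 CPM, Nrarp at 37.5 against 22.9 and 25.1 CPM, and Hes7 at 2.25 against 0.411 and 0.724 CPM. Mesp2 stood at 2.66 against 1.87 and 1.95 CPM, and Ripply2 had 3 reads in flox and 1 and 2 in KI. With 1 flox library on that day the difference has no replicate check and no test. By a rule of size (both clones at least 2-fold away from flox after adding 0.5 CPM), 4 of the 7 genes with at least 1 CPM were lower, namely Hes7, Lfng, Tbx6 and Msgn1, and none was higher, beside 4.43% of all such genes lower and 1.45% higher.

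The neighbours of these genes at EB day 4 were counted by the same rule, by which 4.43% of all genes were lower and 1.45% higher. Of 11 somite genes with at least 1 CPM, 5 were lower in both clones and 1, Myf5, higher. Aldh1a2, which makes retinoic acid, was at 34.1 CPM in flox and at 1.01 and 0.860 CPM in KI, and Mesp1, of early mesoderm, at 38.9 against 6.67 and 7.74 CPM. Of 12 tail bud genes 4 were lower and none higher, while T (brachyury), a defining gene of the primitive streak, was at 489 CPM in flox and 287 and 312 CPM in KI. The 8 pluripotency markers summed to 694 CPM in the flox library and 1266 and 1318 CPM in the KI libraries. The 8 trophoblast markers summed to 2239 CPM in flox and 815 and 884 CPM in KI, with 4 of 7 lower and none higher, and the 8 extraembryonic endoderm markers to 147 CPM against 65.0 and 75.8 CPM. The heart markers summed to 83.6 CPM against 21.5 and 22.7 CPM. The part of these lists in the presomitic gene levels was not tested.

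**Figure D3:**
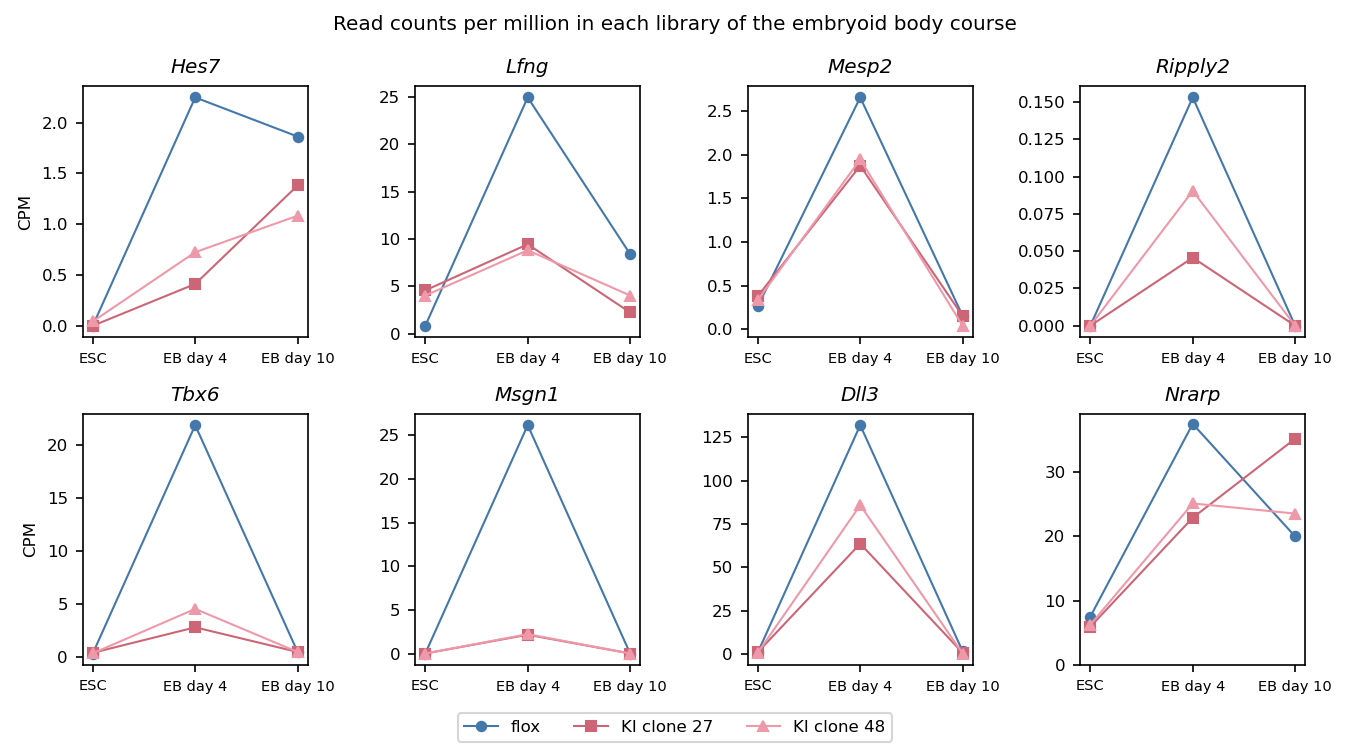
Each panel shows 1 gene in CPM (y axis) at ESC day 0, EB day 4 and EB day 10 (x axis), with 1 library per point (circles flox, squares KI clone 27, triangles KI clone 48). In flox every gene is highest at day 4, where Msgn1 and Tbx6 are far higher than in either clone. In KI, Hes7 in both clones and Nrarp in clone 27 are highest at day 10.

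Averaged over the 3 days, 0 of 7 genes tested was called between KI and flox with edgeR, beside 0.73% of all genes (0.332% lower, 0.398% higher). DESeq2 called 0 as well, and 4 of the 7 had an unadjusted p under 0.05. Msgn1 was at -3.44 (SE 0.39, edgeR adjusted p 0.0731), Tbx6 at -1.29 (0.279), Hes7 at -1.18 (0.295) and Dll3 at -0.84 (0.191). Lfng (-0.65), Mesp2 (-0.27) and Nrarp (-0.17) had smaller values. Msgn1 had 0 reads in every ESC and EB day 10 library. Its value thus sets the 1 flox library of EB day 4 against the KI clones and has no replicate check. The flox library of EB day 4 carried the Tbx6 value, which was 0.025 without it, and without it Hes7 was at -0.47. Hes7 ran from -1.73 to -0.47 with 1 library left out, and none of these values was called. Leaving out the flox ESC library brought the adjusted p of Msgn1 to 0.0359 and that of Lfng, at -1.42, to 0.0325, and leaving out the flox EB day 10 library brought that of Msgn1 to 0.0307. Both libraries held 0 reads of Msgn1, so its calls there add no support.

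Lfng went in different directions on different days. In ESCs it was at 0.846 CPM in flox and at 4.58 and 4.04 CPM in the KI clones, the only 1 of 3 genes with at least 1 CPM that was 2-fold higher in both, beside 5.18% of all genes (2.5% lower). At EB day 10 it was at 8.42 CPM in flox and at 2.25 and 4.04 CPM in KI, and by the rule of size 0 of 4 genes differed in either direction, beside 3.91% lower and 3.50% higher among all genes. Whether the Lfng difference itself changed with the day was not tested.

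Within the KI clones the course of the genes could be tested. From ESCs to EB day 4 the 7 genes tested were all called higher, but Tbx6, Mesp2, Msgn1 and Hes7 passed the filter on low counts only through the EB libraries, where they were high, so their calls add no support. Lfng, Dll3 and Nrarp passed it in ESCs too, and these 3 of 3 were called higher, beside 50.3% of all genes called (26.5% higher, 23.8% lower). Ripply2 did not pass it in these clones and has no test between days. Dll3 rose by 6.20 (SE 0.27, edgeR adjusted p 8.11e-06), Tbx6 by 3.24 (SE 0.40, 0.000458), Mesp2 by 2.30 (SE 0.42, 0.00325) and Nrarp by 1.88 (SE 0.20, 0.000271) on the log2 scale. Msgn1 went from 0 reads in both clones to 47 and 49 reads, at least 34.5-fold higher against 3 reads over the group. Hes7 went from 1 read in all to 25, a ratio of 26.9 (95% counting interval 4.41 to 1105), and its fitted value (4.35) was 3.50 or 6.69 without the ESC library of clone 27 or 48. The rise of Lfng (0.99, edgeR adjusted p 0.0207) was not called when any 1 of the 4 libraries was left out, with adjusted p from 0.0842 to 0.126.

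From EB day 4 to day 10 in the clones, 5 of the 7 genes were called lower and none higher, beside 73.3% of all genes called and 36.6% called lower. Of these, Mesp2 and Msgn1 passed the filter only through day 4, and Hes7 needed day 10. Of the other 4 genes, Lfng, Tbx6 and Dll3 were called lower and Nrarp was not called. The log2 fold change was -7.27 for Dll3, -4.36 for Mesp2, -3.06 for Tbx6 and -1.61 for Lfng, and Msgn1 returned to 0 reads in both clones, at least 31.7-fold lower. Without the day 10 library of clone 27 the value of Mesp2 was -5.41 and that of Dll3 -7.86, and without that of clone 48 Mesp2 was at -3.67. Hes7 (1.02) and Nrarp (0.21) were not called, though Nrarp was called higher without clone 48 of day 10 (0.47, edgeR adjusted p 0.00212). In the flox course, without a test, Msgn1 went from 0 reads to 512 and back to 0.

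Neural cultures were compared at days 8 and 16. At day 8, 0 of 7 tested genes was called with edgeR, beside 19.5% of all genes (6.3% higher, 13.2% lower). DESeq2 called 0, and 4 had an unadjusted p under 0.05. Nrarp stood at 133 and 134 CPM in flox and at 147 and 155 CPM in KI, and Dll3 at 103 and 106 against 81.6 and 79.3 CPM. Both genes did not overlap, in opposite directions, and neither was called (0.21 with edgeR adjusted p 0.277, and -0.35 with 0.056). A fit of the day 8 libraries alone called both. Lfng was at 0.29, Mesp2 at 0.75, Tbx6 at 0.11, Hes7 at -0.66 and Ripply2 at -1.69 on the log2 scale, none called. Without KI clone 27 Lfng was called (0.50, edgeR adjusted p 0.0131), and without flox library 2 Ripply2 was called (-2.13, edgeR adjusted p 0.0375). With 1 library left out Lfng ran from 0.042 to 0.50 and Ripply2 from -2.13 to -1.16.

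At neural day 16 Dll3 was called lower in KI, at 5.88 and 7.25 CPM against 11.0 and 13.5 CPM in flox, without overlap (log2 fold change -0.69, SE 0.13, edgeR adjusted p 0.00115). It was the 1 of 7 called, beside 46.9% of all genes (19.7% lower). The other 6 were not called, with Tbx6 at -0.76, Ripply2 at -0.42, Hes7 at -0.33, Nrarp at -0.08, Lfng at -0.018 and Mesp2 at 0.31. Tbx6 was called without KI clone 27 (-1.32, edgeR adjusted p 0.0169) and Nrarp without KI clone 48 (-0.34, edgeR adjusted p 0.0431). At day 16, 7 of 8 neuronal markers were called higher in KI (Snap25 the most, 1.27) and none lower, with sums of 3565 to 3900 CPM in flox and 5614 to 6137 CPM in KI, beside 27.1% of all genes called higher. Of 19 other Notch genes 10 were lower (Notch2 the most, -1.33) and 2 higher (Notch4 the most, 0.37), and of 16 Wnt and FGF genes 12 were lower (Sp5 the most, -4.34) and 1, Fgf8, higher (1.55). The part of the neuronal markers in the Dll3 level was not tested. The difference of the KI effect between day 16 and day 8 was called for 0 of 7 genes with edgeR, and for 0 with DESeq2 (0 at an unadjusted p under 0.05), beside 33.2% of all genes (19.2% higher, 14% lower). The values ran from -0.87 for Tbx6, through -0.44 for Mesp2, -0.34 for Dll3, -0.31 for Lfng, -0.29 for Nrarp and 0.33 for Hes7, to 1.27 for Ripply2. Nrarp, Lfng, Tbx6 and Dll3 were each called under at least 1 alternative fit. Msgn1 had 0 reads in every neural library.

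In TE cultures, Msgn1 had 2 and 0 reads in the flox libraries and 38 and 85 reads in the KI libraries (1.38 and 3.08 CPM). The groups did not overlap, the pooled ratio was 56.2 (95% counting interval 15.2 to 469, exact), and the gene was called higher (edgeR adjusted p 0.000452). Msgn1 passed the filter on low counts only through the KI TE libraries, where it was high, so its call is given as a description. Lfng stood at 8.80 and 7.45 CPM in flox and 1.38 and 2.72 CPM in KI, and Nrarp at 15.2 and 14.1 against 5.16 and 8.85 CPM, both lower without overlap. Their log2 fold changes were -1.95 (SE 0.31, edgeR adjusted p 0.000184) and -1.03 (SE 0.22, 0.00136). These were 2 of the 6 other genes tested, beside 50.9% of all genes called (26.7% higher, 24.2% lower). Tbx6 (-0.96), Dll3 (0.41), Hes7 (0.12) and Mesp2 (0.70) were not called. Tbx6 was called without KI clone 48 (-1.67, edgeR adjusted p 0.0225) and ran up to -0.51 with another library left out. The Msgn1 estimate was 5.65 on the log2 scale, and 8.66 without flox library 1, 4.66 without flox library 2 and between 4.66 and 5.65 without KI clone 48.

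Tail bud genes moved with Msgn1 in the TE cultures. Of 14, 9 were called higher in KI and none lower, Evx1 the most (4.51), with a median of 2.00, beside 26.7% of all genes called higher and 24.2% lower. Cdx2 was 1 of the 9 (1.92). CDX2 was inducible in these cultures, so Cdx2 reads may include those of an induced copy, which was not tested. Of 8 trophoblast markers 6 were higher (Gata3 the most, 1.92) and 1, Elf5, lower (-3.79), and 8 of 8 pluripotency markers were lower (Prdm14 the most, -4.13), beside the same shares. Their part in the Msgn1 level was not tested. Neuron markers summed to 102 to 108 CPM in flox and 24.4 to 27.3 CPM in KI, with 3 of 7 called lower (Stmn2 the most, -2.84) and 1, Isl1, higher (2.83). Heart markers summed to 28.8 to 31.9 and 5.49 to 5.66 CPM, with 3 of 8 lower (Tnnt2 the most, -3.38) and none higher. Of 18 other Notch genes 4 were lower (Notch4 the most, -2.08) and 3 higher (Jag1 the most, 1.04). The part of these lists in the Lfng and Nrarp levels was not tested. Ripply2 had 0 reads in every TE library.

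In ExEn cultures only Nrarp was called, 1 of 6 genes tested, beside 35.5% of all genes (17.4% lower). It stood at 5.86 and 5.93 CPM in flox and at 3.10 and 2.73 CPM in KI, without overlap (log2 fold change -1.04, SE 0.26, edgeR adjusted p 0.00594). All 8 extraembryonic endoderm markers were called lower in KI here (Apob the most, at 504 and 525 CPM in flox and at 0 and 0.101 CPM in KI), and their part in the Nrarp level was not tested. Lfng was at 11.5 and 10.1 CPM in flox and at 9.99 and 16.1 CPM in KI, overlapping (0.24, SE 0.27). Dll3 (1.55), Hes7 (1.64), Mesp2 (0.34) and Tbx6 (-0.59) were not called, each with under 20 reads a library. With 1 library left out Hes7 ran from 0.74 to 5.08, Dll3 from 0.95 to 2.56, Mesp2 from 0.087 to 0.64 and Tbx6 from -0.89 to -0.32, none called. The KI effect on Lfng differed between TE and ExEn by -2.19 (SE 0.41, edgeR adjusted p 0.00119), the 1 of 6 genes called, beside 35.3% of all genes (17% lower). Msgn1 and Ripply2 had 0 reads in every ExEn library.

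**Figure D4:**
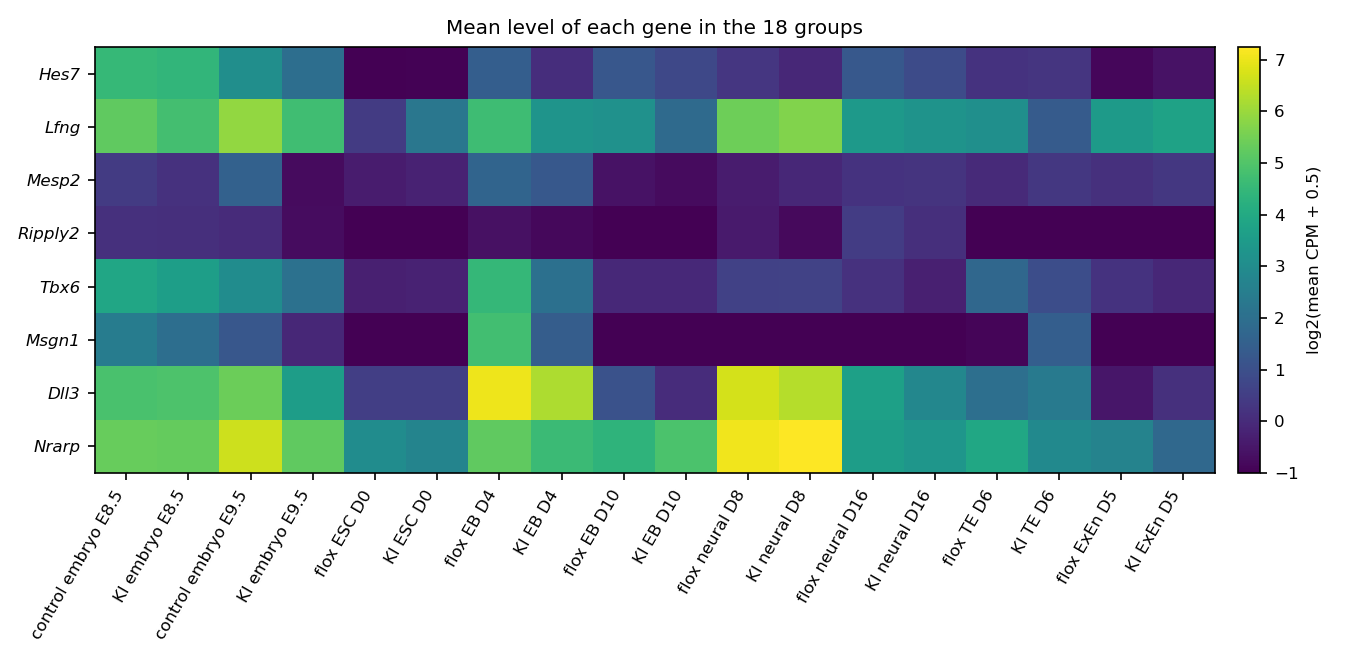
Colour gives log2(mean CPM + 0.5) for each gene (rows) in each of the 18 groups (columns), on 1 scale for all genes. Msgn1 is brightest in flox EB day 4, above the floor of the scale in the embryo, KI EB day 4 and KI TE columns, and at 0 reads in ESC, EB day 10, neural and ExEn columns, while Nrarp is brightest in the neural day 8 columns and Dll3 in flox EB day 4.

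Over the 18 groups the genes reached their highest levels in different places. Msgn1, Tbx6 and Dll3 had their highest value in the flox EB day 4 library, and for Tbx6 the control (13.3 to 15.7 CPM) and KI embryos (10.1 to 13.7 CPM) of E8.5 followed and overlapped each other. Mesp2 was at 2.66 CPM in that library, within the range of control embryos at E9.5 (0.238 to 4.47 CPM). Hes7 was highest in the control (22.6 ± 6.72 CPM, SD, n = 3) and KI embryos (21.0 ± 4.75, n = 3) of E8.5, which overlapped, and was under 3 CPM in every culture. Lfng was highest in control embryos at E9.5 (60.2 ± 7.44 CPM, n = 3), where its lowest library was below the higher of the KI neural day 8 libraries (58.9 CPM). Nrarp was highest in KI (151 ± 5.27, n = 2) and flox neural day 8 cultures (134 ± 0.793, n = 2), above control embryos at E9.5 (96.8 ± 9.13, n = 3). Ripply2 stayed under 1 CPM in each group mean, was highest in flox neural day 16 cultures (0.893 CPM) and had 0 reads in 15 of 37 libraries. Msgn1 had 0 reads in 19.

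Per transcript length (deposited RPKM), the order of the genes also changed with the sample. In control embryos at E8.5 Hes7 had the highest mean (18.04 RPKM), followed by Lfng (12.5), Nrarp (11.7) and Dll3 (10.2), then Msgn1 (6.81) and Tbx6 (6.44), with Ripply2 (0.927) and Mesp2 (0.336) last. In the flox EB day 4 library Dll3 (43.8 RPKM) and Msgn1 (33.1) led, followed by Nrarp (10.5), Tbx6 (9.16) and Lfng (7.86), and Hes7 was at 1.67. Neither the annotated gene that overlaps Ripply2 (Gm51687) nor those that overlap Hes7 (9130213A22Rik and n-TRtct4) can be separated from them, since the use of strand is not given in the sources used here.

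Across the 18 group means of log2(CPM + 0.5), Tbx6 and Msgn1 were the pair most alike among the 7 genes that reached 1 CPM (Pearson r 0.893), and Mesp2 and Nrarp the least (0.117). Outside the 8, the gene most like each was Glrx5 for Hes7 (0.907), Stxbp4 for Lfng (0.937), Kcnj14 for Mesp2 (0.806), Acvr2b for Dll3 (0.924) and Raver2 for Nrarp (0.931). Tbx6 and Msgn1 shared Myrfl as the most alike (0.909 and 0.923), and Cer1, a secreted inhibitor of the early embryo, was the third for Msgn1 (0.842). The groups share lines, depth and culture type, and these values describe this set of groups only.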

How the data were processed

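The RNA libraries analysed were 12 embryo, 9 ESC and EB, 8 neural and 8 TE and ExEn libraries, made by poly(A) selection per the labels' protocols. The double knockout neural sample of day 8 was not among them. The deposited tables hold a whole-number read count and an RPKM value per RefSeq transcript (29082 transcripts), per the file headers. The submitters' processing notes name STAR, Bowtie2, bcl2fastq, SICER 1.1 and the build mm9, without roles. The counter, annotation version and use of strand are not given in the sources used here. RPKM, length- and depth-scaled reads as deposited by the authors, served only to order genes. Symbols came from a RefSeq table (28436 transcripts matched, 646 did not and kept their own entry), and 1 transcript per gene, the one with most reads, was kept (23109 entries). CPM is the count over the sum of these reads in megareads.

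Counts were tested with edgeR 4.0.16 in R 4.3.3 (filterByExpr with its minimum of 10 reads, TMM, robust glmQLFit, glmQLFTest, Benjamini-Hochberg over all genes). Called means an adjusted p below 0.05. SE is the absolute log2 fold change over the square root of F. Embryo, neural, and TE with ExEn libraries each entered 1 fit. The EB course had day as a factor, and the KI clones a fit of their own. The embryo fit was tested on simulated data. Alternatives were DESeq2 1.42.0, median-ratio scaling, no filter, transcript sums, only the groups compared, replicate blocks, and leaving out each library. Counting intervals are exact binomial at 95%. They cover counting error only, since PCR reads that carry no molecular identifier need not come from separate molecules.

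The rule named all 8 genes in each comparison, and those not tested are given as such. Of the other lists, which were somite, other Notch pathway, Wnt and FGF, tail bud, neural progenitor, neuron, heart, blood, extraembryonic endoderm, pluripotency and trophoblast, the most changed called gene in each direction was named wherever the text counts a list's calls by edgeR, and others as examples. The genes, lists and tests were chosen with earlier results of these data known, and the trophoblast list was added after these data were seen. The number before the hyphen in embryo titles was checked for pairing. At E8.5 the deviations of the same-numbered KI and control embryos from their group means correlated at 0.291, 0.33 and 0.134. Those of other pairs correlated at -0.271 to -0.0144. Centring on group means makes part of the negative values follow from the positive ones. Same-numbered embryos were thus the pairs most alike at E8.5, and the labels do not say what the number is. At E9.5 same-numbered pairs ran from -0.0135 to 0.174 and other pairs from -0.174 to -0.0317. There the number 1114 covered more than 1 embryo of each group. KI clones pair the days of the EB course by name. Replicate libraries differed by 1.5 (the flox neural day 8 pair) to 54.8 in chi-square per degree of freedom over genes with at least 20 reads, and all were kept.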

Additional observations from a re-analysis of the deposited data

Results flagged for a closer look

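A difference of the KI effect between conditions, tested in 1 fit as a difference of effects with edgeR, passed an adjusted p of 0.05 for 3 genes between embryo stages. These were 3 of 8, beside 6.63% of all genes called (3.24% lower, 3.39% higher). The effect at E9.5 minus that at E8.5 was -1.95 for Dll3, -1.37 for Nrarp and -0.77 for Lfng on the log2 scale. At E9.5 every KI library of these 3 genes was below every control library, beside 21.8% of genes with at least 1 CPM in an embryo library. At E8.5 this held for Lfng alone of the 3, beside 12.8%. The calls held with each of the 12 embryo libraries left out in turn, with adjusted p up to 0.00111 for Dll3, 4.41e-05 for Nrarp and 0.0169 for Lfng.

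Lfng also differed between culture types. Its KI effect in TE minus that in ExEn was -2.19, from 8.80 and 7.45 CPM in flox TE against 1.38 and 2.72 in KI, and from 11.5 and 10.1 CPM in flox ExEn against 9.99 and 16.1 in KI. The value ran from -2.76 to -1.80 with 1 of the 8 libraries left out. Lfng was the 1 of 6 genes called, beside 35.3% of all genes (17% lower). The KI ExEn libraries were low in the markers of their label.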

How the results depend on the processing

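Of 990 values of single genes under an alternative, 914 kept their direction and side of the threshold, 29 passed it newly, 22 lost it and 25 changed sign. The cause was not tested. The count of called genes changed by over 1.5 times as follows. With 1 library left out it ran from 0 to 1 at E8.5 (1 in the full fit), 2 to 5 for the stages in controls (5), 0 to 2 for the EB course (0), 0 to 1 at neural day 8 (0), 1 to 2 at neural day 16 (1), and 0 to 1 for the neural difference of effects (0). At neural day 8 it was 1 without the filter on low counts (Dll3) and 2 in a fit of that day alone (Dll3 and Nrarp). At E9.5 it ran from 5 to 7 of 8, and DESeq2 and median-ratio scaling added Ripply2. A fit of the E9.5 libraries alone called 4, without Tbx6, and the filter on low counts removed Mesp2 and Ripply2 there.

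Signs changed only with 1 library left out, and none of those genes was called in the full fit. The log2 fold changes ran at E8.5 from -0.28 to 0.13 for Hes7, -1.28 to 0.18 for Mesp2, -0.55 to 0.38 for Ripply2, -0.034 to 0.24 for Dll3 and -0.12 to 0.014 for Nrarp. Between stages in controls Ripply2 ran from -0.69 to 0.12. In the EB course Tbx6 ran from -1.84 to 0.025 and Nrarp from -0.51 to 0.092, and between EB days 4 and 10 Nrarp ran from -0.11 to 0.47. At neural day 16 Lfng ran from -0.066 to 0.034, Mesp2 from -0.011 to 0.64 and Nrarp from -0.34 to 0.14. In TE Hes7 ran from -0.73 to 1.50 and Dll3 from -0.25 to 0.84, and in ExEn Lfng ran from -0.15 to 0.55. Without the flox EB day 4 library Msgn1 had no value in the EB course, since no flox reads were left.

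With the replicate block on the title number 7 of 8 genes were called at E9.5 (Ripply2 added), 1 at E8.5 and 4 for the difference between stages (Mesp2 added). With the clone as the block 7 and 5 of 7 were called between EB days, and with the line name 0 and 1 for the neural and the TE minus ExEn differences. The block changed no other call. Stage comparisons had no block, since no number is shared between stages. Ripply2 had at most 21 reads in an embryo library and Mesp2 from 2 to 100, which limits what these fits can show.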
